A study of Schizosaccharomyces pombe with 21 samples.

Results

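The loci described here are 42 annotated fission yeast (Schizosaccharomyces pombe) genes of 6988 counted loci. They comprise all genes whose systematic name starts with SPBPB and, as 1 of the 42, the lncRNA nam3 (SPNCRNA.1696). The rule uses names and no expression value, but it was set with earlier results of these data known. Of the 42, 38 are protein coding, 3 are annotated pseudogenes and 1 is a lncRNA. The SPBPB2B2 names account for 17 members, SPBPB21E7 for 10, SPBPB10D8 for 7, SPBPB8B6 for 5 and SPBPB7E8 for 2. In the gene order of the RefSeq annotation of ASM294v3 the members did not form a single cluster. The SPBPB2B2 genes and nam3, 18 loci with SPBPB2B2.06c among them, were at the right end of chromosome II. The 22 loci of the SPBPB8B6, SPBPB21E7 and SPBPB10D8 names were at the left end of the same chromosome, and SPBPB7E8.01 and SPBPB7E8.02 were in its interior, so that 40 of the 42 were within 100 kb of an end. Because the deposited counts were made on ASM294v2, gene order is used and no coordinates are given.

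Poly(A)+ RNA was sequenced from 7 groups of 3 cultures each in a pair of experiments. In the STF experiment, cells were grown in ePMGT, a synthetic medium with glutamate, at 30 °C. STF6 cells carried asp1-W386* and STF9 cells asp1-W493*, each a nonsense allele that truncates the pyrophosphatase domain of Asp1, and they were compared with asp1-WT cells. In the kcs1 experiment, cells were grown in YES, a rich yeast extract medium, at 30 °C, and the alleles R332T, L338R and E834K of kcs1 (kcs1-R332T and so on), each a missense allele of an inositol hexakisphosphate kinase gene, were compared with kcs1-WT. All strains were labelled h+, the asp1 alleles were linked to a hygMX marker and the kcs1 alleles, wild type included, to a kanMX marker. Each mutant group was 1 strain, and the asp1-WT group was labelled as strain BS216 for culture 1 and AS478 for cultures 2 and 3. Medium and mutated gene changed together between the experiments, so no test was run across them.

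As background, fission yeast acquires phosphate through a set of genes that are kept off in phosphate-replete cells by transcription of an upstream lncRNA across their promoters. Inositol pyrophosphates, made by the Kcs1 and Asp1 kinases and degraded by the Asp1 pyrophosphatase, act on the termination of these lncRNAs, and thereby on pho1 (a cell surface acid phosphatase), pho84 (a phosphate transporter) and tgp1 (a glycerophosphodiester transporter). Genes close to chromosome ends lie next to telomeric heterochromatin. Many encode transporters or metabolic enzymes used under special growth conditions, and many belong to repeated families.

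Total counts were between 20547260 and 35919903 per library in the STF experiment and between 19515604 and 27776638 in the kcs1 experiment. Transcripts of asp1, the gene mutated in the STF strains, had log2 fold changes of 0.41 in STF6 and 0.04 in STF9, and those of kcs1 -0.13, -0.09 and 0.04 in R332T, L338R and E834K, but gene counts do not show the mutations themselves. For the label h+, the P cell genes map2 and map3 had at least 112 and 315 counts in each library, but the M cell genes mam2 and mfm2 were also counted in each, with at least 79 and 42, and mfm1 and mfm3 had at most 48 and 45. In bulk RNA, fewer cells that express a gene and less RNA of it per cell cannot be told apart.

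The SPBPB members were tested with all other loci by the edgeR quasi-likelihood test, with the Benjamini-Hochberg adjustment over all loci tested. Here, a locus rose or fell where its adjusted p was at most 0.05, and it was called where, in addition, it changed at least 2-fold and had a mean normalized count of at least 100 in the higher group. Normalized counts are read counts scaled by effective library size to a common depth within an experiment. A filter on low counts left 28 of 42 members to test in the STF experiment and 29 in the kcs1 experiment. The untested members had at most 21 counts in any STF library and at most 12 in any kcs1 library, and 4 of them (SPBPB21E7.05, SPBPB10D8.05c, SPBPB10D8.06c and SPBPB2B2.16c) had 0 counts in all 21 libraries. For 28 of the 42 members at least 90% of the 51-base windows, the length of each read of a pair, occurred once in the genome, whereas SPBPB10D8.05c to SPBPB10D8.07c, SPBPB2B2.15, SPBPB2B2.16c, SPBPB2B2.18 and SPBPB2B2.19c had no unique window.

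In STF6, 2 members were called higher and 7 lower, where 2.51% of all 6144 loci tested were called higher and 1.73% lower (4.23% in all). In STF9, 3 were called higher and 7 lower, where 2.12% and 1.87% of all loci were (3.99% in all). In R332T, 3 were called higher and 2 lower, where 0.525% of all 6093 loci tested were called higher and 0.377% lower (0.903% in all). In L338R, 0 were called higher, or 1 by DESeq2, and 3 lower, where 0.46% and 0.476% of all loci were (0.935% in all). In E834K, 1 was called higher and 4 lower, where 0.689% and 0.443% of all loci were (1.13% in all). Expressed as shares of the members tested, the calls made up 32.1% in STF6, 35.7% in STF9, 17.2% in R332T, 10.3% in L338R and 17.2% in E834K. Other loci within 100 kb of an end of chromosome I or II were called in 17.5% of 80 tested in STF6 and in 18.8% in STF9, and in 8.33%, 9.72% and 9.72% of 72 tested in R332T, L338R and E834K.

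By the adjusted p alone, 3 members rose and 12 fell in STF6, where 16.6% of all loci rose and 11.6% fell. In STF9, 5 rose and 12 fell, where 18.2% and 15.1% of all loci did. In R332T, 9 rose and 6 fell, where 14.3% and 19.8% of all loci did. In L338R, 6 rose and 7 fell (10.9% and 11.5% of all loci), and in E834K 8 rose and 8 fell (12.4% and 15.4%). As shares of the members tested, those that passed in either direction made up 53.6% in STF6, 60.7% in STF9, 51.7% in R332T, 44.8% in L338R and 55.2% in E834K.

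The members did not shift as a block. Their median log2 fold change was -0.31 in STF6 and -0.32 in STF9, against 0.06 and -0.03 over all loci tested, and it was 0.12 in R332T, -0.04 in L338R and 0.15 in E834K, against 0.01, -0.04 and 0.02. Beneath these medians lay single members between -5.10 and 4.09 in STF6 and between -4.70 and 2.96 in R332T. In the STF experiment the ends of the chromosome differed in the direction of their few calls. At the left end 0 members were called higher and 6 lower in STF6, whereas at the right end 2 were called higher and 1 lower (4.23% of all loci called). In STF9 the left end had 0 higher and 5 lower, and the right end 3 higher and 2 lower (3.99%). The kcs1 alleles did not share this pattern. R332T had 2 higher and 0 lower at the left end, and 1 higher and 2 lower at the right end (0.903%). L338R had 0 higher and 1 lower at each end (0.935%). E834K had 0 higher and 2 lower at the left end, and 1 higher and 1 lower at the right end (1.13%). By the adjusted p alone, 0 of 14 left-end members tested rose and 9 fell in STF6, and 1 rose and 9 fell in STF9. At the right end 3 of 12 rose and 3 fell in STF6, and 4 rose and 3 fell in STF9. Of all loci, 16.6% rose and 11.6% fell in STF6, and 18.2% rose and 15.1% fell in STF9. Both STF comparisons share the asp1-WT libraries, and the 3 kcs1 comparisons share the kcs1-WT libraries.

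**Figure D1:**
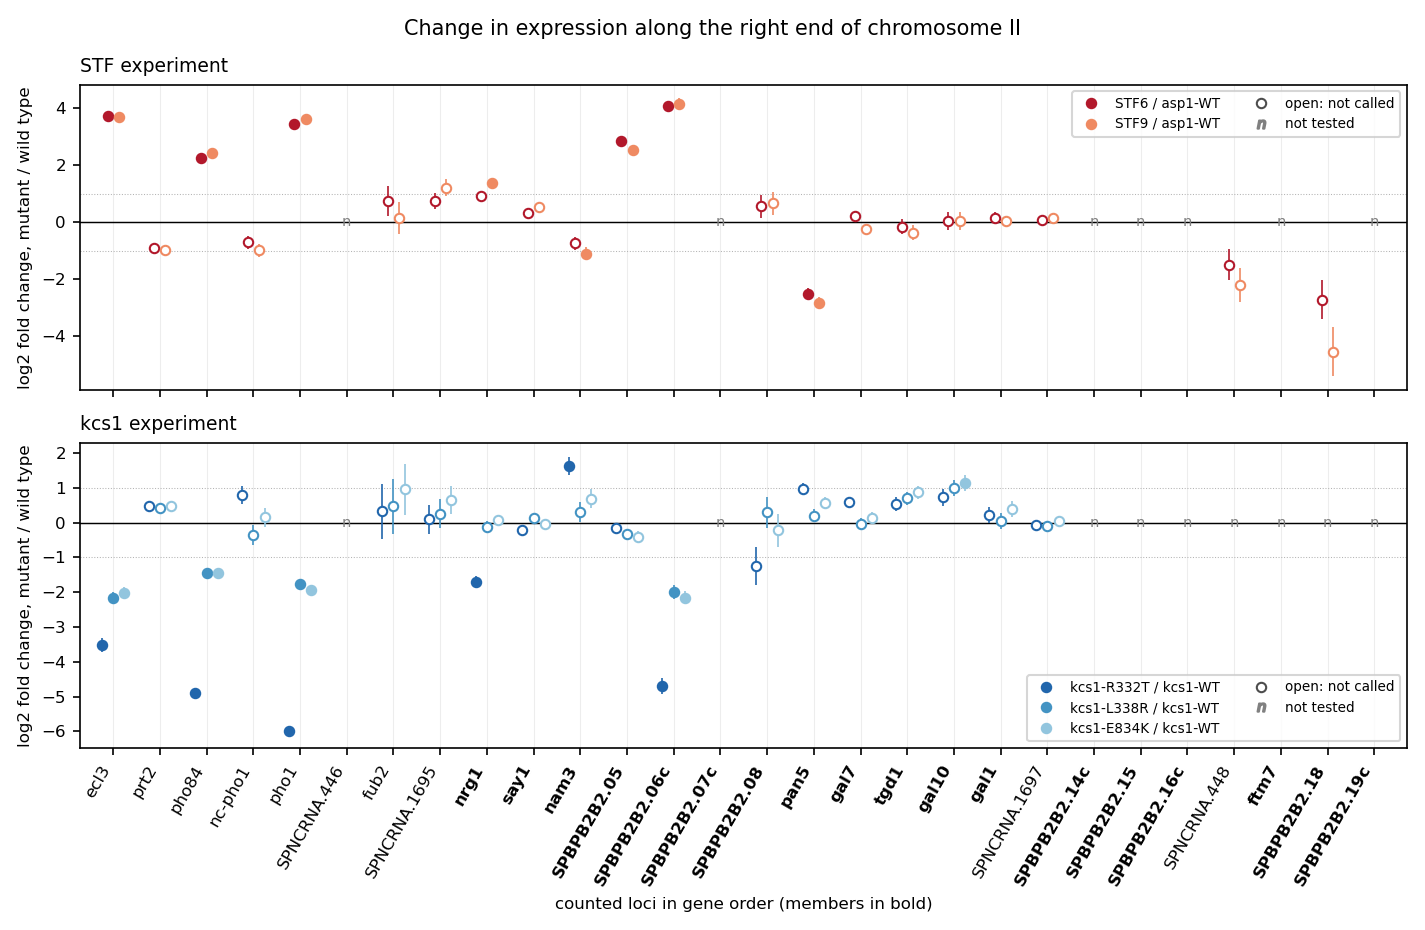
Log2 fold change of each counted locus along the right end of chromosome II, in gene order from ecl3 on the inner side to SPBPB2B2.19c on the outer side (upper panel, STF6 and STF9 over asp1-WT; lower panel, kcs1-R332T, kcs1-L338R and kcs1-E834K over kcs1-WT). Points are fitted values with bars of 1 SE, filled points are called, n marks loci not tested, and dotted lines mark a 2-fold change. SPBPB2B2.06c and SPBPB2B2.05 stand at 4.09 and 2.84 in STF6 while pan5 stands at -2.52, and in R332T SPBPB2B2.06c stands at -4.70 while nam3 stands at 1.64.

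SPBPB2B2.06c, annotated by RefSeq as a phosphoprotein phosphatase and called an extracellular 5′ nucleotidase in the study, moved more than any other tested member of the right end in each of the 5 mutants except STF9, where SPBPB2B2.18, without unique sequence, had the larger estimate. Its normalized counts were 23206, 18547 and 17247 in STF6 and 21592, 20046 and 21102 in STF9, against 877, 1477 and 1125 in asp1-WT. In the kcs1 experiment they were 43.5, 78.6 and 45.3 in R332T, 402, 374 and 334 in L338R and 247, 346 and 397 in E834K, against 1209, 1638 and 1567 in kcs1-WT. The groups did not overlap with their wild type in any of the 5 mutants, and among the kcs1 alleles the R332T libraries lay below all libraries of L338R and E834K. The gene was 17.0-fold higher in STF6 (log2 fold change 4.09, SE 0.18, adjusted p = 5.58e-09, edgeR) and 18.1-fold higher in STF9 (log2 fold change 4.17, SE 0.18, adjusted p = 5.10e-09, edgeR). In the kcs1 alleles it was 26.0-fold lower in R332T (log2 fold change -4.70, SE 0.23, adjusted p = 5.04e-09, edgeR), 3.98-fold lower in L338R (log2 fold change -1.99, SE 0.19, adjusted p = 6.37e-06, edgeR) and 4.46-fold lower in E834K (log2 fold change -2.16, SE 0.19, adjusted p = 3.14e-06, edgeR). It took 23.7% to 26.2% of all counts on members in STF6 libraries and 25.2% to 25.7% in STF9 libraries, against 1.10% to 1.93% in asp1-WT libraries, and 0.198% to 0.362% in R332T libraries, against 4.23% to 5.70% in kcs1-WT libraries. The study reports SPBPB2B2.06c, from these same libraries, as upregulated in STF6 and STF9 and downregulated in each kcs1 allele. Its changes here are therefore not an independent result. Several other members described below are also among the changed genes that the study lists.

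The inner neighbours of the SPBPB2B2 genes, which are not members, include the phosphate-responsive genes ecl3, pho84 and pho1. The log2 fold change of pho1 was 3.44 in STF6, 3.62 in STF9, -5.99 in R332T, -1.77 in L338R and -1.94 in E834K. For pho84 it was 2.26 in STF6, 2.42 in STF9, -4.91 in R332T, -1.43 in L338R and -1.46 in E834K. ecl3, a small gene named as an extender of chronological lifespan, had 3.73 in STF6, 3.69 in STF9, -3.51 in R332T, -2.17 in L338R and -2.01 in E834K, and each of these changes was called. A comparison list of 6 genes held ecl3, pho84 and pho1 here, and tgp1, pho842 and pho841 elsewhere in the genome. The study describes ecl3 as co-regulated with the phosphate genes, and the others as phosphate acquisition genes. From these same libraries it reports all 6 as upregulated in STF6 and STF9, so their calls are not an independent result. It also reports ecl3, pho84, pho1 and tgp1 as downregulated in each kcs1 allele. In STF6 6 of 6 were called higher (2.51% of all loci), and likewise in STF9 (2.12%). In R332T 5 of 6 were called lower, and in L338R and in E834K 4 of 6 (0.377%, 0.476% and 0.443% of all loci). All 6 fell at the adjusted p alone in each kcs1 allele (19.8%, 11.5% and 15.4% of all loci). Next outward, SPNCRNA.446 and fub2 had few reads, with group means of at most 1.06 and between 5.52 and 16.8 normalized counts. fub2 did not pass the edgeR test in any comparison, with log2 fold changes from 0.16 in STF9 to 0.96 in E834K, but its few reads limit what the test could show. The other loci before SPBPB2B2.06c did not move with it in every mutant. SPNCRNA.1695 rose in STF9 only by the adjusted p (log2 fold change 1.22, SE 0.30, adjusted p = 0.00719, edgeR), and nrg1, say1, nam3 and SPBPB2B2.05 are described next.

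SPBPB2B2.05, a class I glutamine amidotransferase family gene next to SPBPB2B2.06c on the inner side, followed it in the STF mutants. In the kcs1 mutants its changes were small and short of the edgeR test. Libraries of the STF experiment had normalized counts of 953, 1106 and 1309 in STF6 and 919, 863 and 953 in STF9, against 109.6, 162 and 199.9 in asp1-WT. All mutant libraries lay far above the highest wild-type library, with a 7.16-fold rise in STF6 (log2 fold change 2.84, SE 0.20, adjusted p = 3.43e-07, edgeR) and a 5.81-fold rise in STF9 (log2 fold change 2.54, SE 0.19, adjusted p = 1.12e-06, edgeR). In YES medium the counts were 64.8, 62.0 and 61.1 in R332T, 51.9, 58.0 and 56.0 in L338R and 47.3, 55.4 and 54.3 in E834K, against 74.2, 77.2 and 58.4 in kcs1-WT. There the L338R and E834K libraries all lay below the kcs1-WT libraries, the nearest by little (58.0 against 58.4), and R332T overlapped with kcs1-WT. The log2 fold changes were below 0 but small, at -0.16 (SE 0.16) in R332T, -0.34 (SE 0.17) in L338R and -0.42 (SE 0.17) in E834K. None passed the edgeR test (adjusted p = 0.462, 0.167 and 0.0785). Leaving out kcs1-WT culture 3 brought the E834K value of SPBPB2B2.05 past it, at -0.53 (adjusted p = 0.0408, edgeR).

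The lncRNA nam3, transcribed on the strand opposite to SPBPB2B2.05, ran against SPBPB2B2.06c. Its normalized counts were 134, 134 and 215 in STF6 and 105, 129.9 and 144 in STF9, against 210.0, 269.5 and 329 in asp1-WT. The kcs1 libraries had 101, 105 and 108 in R332T, 34.3, 58.0 and 33.6 in L338R and 60.7, 63.1 and 36.2 in E834K, against 29.9, 44.7 and 26.4 in kcs1-WT. STF9 libraries were all below the asp1-WT libraries, 1 STF6 library reached into the wild-type range, and the R332T libraries were all above the kcs1-WT libraries. nam3 fell by 0.74 on the log2 scale in STF6 (SE 0.23, adjusted p = 0.0272, edgeR) and by 1.10 in STF9 (SE 0.23, adjusted p = 0.00323, edgeR), and it was 3.121-fold higher in R332T (log2 fold change 1.64, SE 0.26, adjusted p = 3.30e-04, edgeR). The fall in STF6 passed 2-fold without STF6 culture 3 (log2 fold change -1.06, adjusted p = 0.00132, edgeR) and was no longer past the edgeR test without STF6 culture 2 (adjusted p = 0.116), asp1-WT culture 2 (adjusted p = 0.0669) or asp1-WT culture 3 (adjusted p = 0.0931), and the STF9 fall dropped below 2-fold without STF9 culture 1 or asp1-WT culture 3 (log2 fold change -0.98 either way). In L338R and E834K nam3 had log2 fold changes of 0.32 (adjusted p = 0.47) and 0.69 (adjusted p = 0.0785), neither past the edgeR test, the E834K value passing without E834K culture 3 (0.88) or kcs1-WT culture 2 (0.93).

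nrg1 (SPBPB2B2.01), an amino acid permease gene and the innermost SPBPB2B2 member, moved in the direction of SPBPB2B2.06c in 3 of the 5 mutants. Its normalized counts were 4724, 4981 and 4405 in STF6 and 6572, 6727 and 5868 in STF9, against 3188, 2262 and 1984 in asp1-WT. In YES medium they were 277, 318 and 272 in R332T, 956, 778 and 872 in L338R and 815, 905 and 1248 in E834K, against 776, 1216 and 845 in kcs1-WT. All STF libraries exceeded the wild-type libraries, and the R332T libraries were well below the lowest kcs1-WT library, whereas L338R and E834K overlapped with kcs1-WT. nrg1 rose 1.90-fold in STF6 (log2 fold change 0.92, SE 0.14, adjusted p = 2.96e-04, edgeR), short of the 2-fold needed for a call, and 2.58-fold in STF9 (log2 fold change 1.37, SE 0.14, adjusted p = 1.39e-05, edgeR), and it was 3.27-fold lower in R332T (log2 fold change -1.71, SE 0.18, adjusted p = 1.26e-05, edgeR). Without asp1-WT culture 1, the BS216 culture with the highest wild-type count, the STF6 rise of nrg1 was past 2-fold (log2 fold change 1.15, adjusted p = 1.06e-05, edgeR). The values in L338R and E834K, -0.12 and 0.06, did not pass the edgeR test (adjusted p = 0.666 and 0.808).

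say1 (SPBPB2B2.02), a sterol deacetylase gene between nrg1 and nam3, changed little. It had normalized counts of 261, 317 and 336 in STF6 and 380.1, 347 and 326 in STF9, against 234, 272 and 224 in asp1-WT. The kcs1 libraries had 179.8, 132 and 144 in R332T, 196, 187 and 203 in L338R and 144, 189 and 186 in E834K, against 192, 178 and 161 in kcs1-WT. It rose in STF9 (log2 fold change 0.53, SE 0.15, adjusted p = 0.015, edgeR), although not without STF9 culture 1 (adjusted p = 0.0718) or asp1-WT culture 3 (adjusted p = 0.0949), and the log2 fold change of say1 in STF6 was 0.33 (adjusted p = 0.121, edgeR), and 0.39 without STF6 culture 1 (adjusted p = 0.0497). In R332T, L338R and E834K it had log2 fold changes of -0.22, 0.14 and -0.03, all short of the edgeR test (adjusted p = 0.264, 0.544 and 0.9).

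On the outer side of SPBPB2B2.06c the nearest loci were barely transcribed. SPBPB2B2.07c had 5, 9 and 8 counts in STF6 and 1, 14 and 5 in STF9, against 0, 1 and 5 in asp1-WT, and 0, 3 and 0 in R332T, 4, 3 and 1 in L338R and 1, 6 and 3 in E834K, against 3, 2 and 1 in kcs1-WT. It was not tested, and 37.4% of its windows are unique. SPBPB2B2.08 had normalized counts of 22.8, 37.6 and 46.0 in STF6 and 24.2, 37.4 and 55.1 in STF9, against 17.0, 36.7 and 19.2 in asp1-WT, and of 2.90, 8.73 and 1.05 in R332T, 8.31, 18.3 and 13.2 in L338R and 9.25, 8.65 and 9.66 in E834K, against 8.68, 11.2 and 12.2 in kcs1-WT. Its groups overlapped, and its log2 fold changes of 0.57 in STF6, 0.67 in STF9, -1.25 in R332T, 0.30 in L338R and -0.22 in E834K were short of the edgeR test, the lowest adjusted p being 0.0888 in R332T. That value of SPBPB2B2.08 passed without R332T culture 2 (log2 fold change -2.34, adjusted p = 0.0182, edgeR).

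pan5 (SPBPB2B2.09c), which encodes a 2-dehydropantoate 2-reductase of the pantothenate pathway and is the third locus outward, moved opposite to SPBPB2B2.06c. Counts of pan5, normalized, were 149, 209 and 283 in STF6 and 165, 179 and 175 in STF9, against 1038, 1217 and 1434 in asp1-WT. The kcs1 experiment gave 1170.5, 1187 and 1150.0 in R332T, 466, 926 and 684 in L338R and 807, 899 and 976 in E834K, against 539.9, 647 and 613 in kcs1-WT. Each STF library was well below each wild-type library, R332T and E834K libraries were all above the kcs1-WT libraries, and L338R libraries spread to both sides of them. pan5 was 5.74-fold lower in STF6 (log2 fold change -2.52, SE 0.20, adjusted p = 1.58e-06, edgeR) and 7.09-fold lower in STF9 (log2 fold change -2.83, SE 0.21, adjusted p = 7.47e-07, edgeR). It rose 1.95-fold in R332T (log2 fold change 0.96, SE 0.17, adjusted p = 8.32e-04, edgeR) and 1.49-fold in E834K (log2 fold change 0.57, SE 0.17, adjusted p = 0.0234, edgeR), under the fold for a call, and its log2 fold change in L338R was 0.21 (adjusted p = 0.44, edgeR), and 0.42 without L338R culture 1 (adjusted p = 0.00601). The rise of pan5 in E834K was lost without E834K culture 2 or 3, or kcs1-WT culture 1 or 3 (adjusted p from 0.0534 to 0.0959, edgeR), and the R332T rise reached 2-fold without kcs1-WT culture 2 (log2 fold change 1.02).

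**Figure D2:**
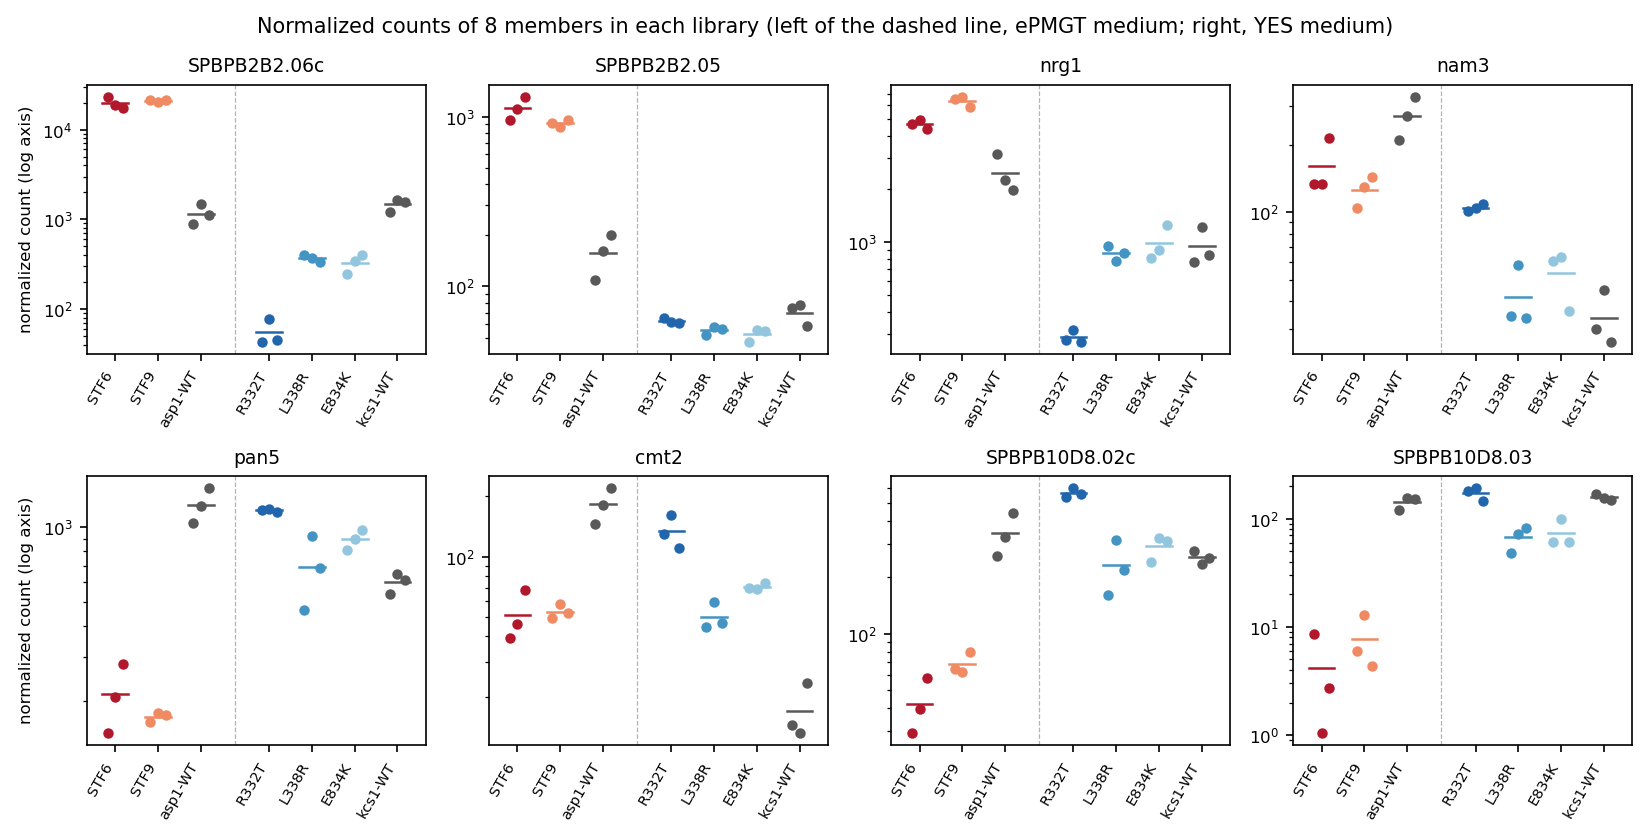
Normalized counts (log axis) of 8 members in each library, one point per culture and a line at the group mean, with STF6, STF9 and asp1-WT left of the dashed line and kcs1-R332T, kcs1-L338R, kcs1-E834K and kcs1-WT right of it. Levels are scaled within each experiment. SPBPB2B2.06c runs from 43.5 in an R332T library to 23206 in an STF6 library, and SPBPB10D8.03 falls to between 1.04 and 8.69 in STF6.

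The galactose genes follow outward from pan5: gal7 (the uridylyltransferase of galactose breakdown), gal10 (the epimerase), gal1 (galactokinase) and, annotated between them as a nucleotide-sugar dehydratase, tgd1. None of the 4 changed in STF6 or STF9 by the edgeR test, where 0 of 4 had an unadjusted p under 0.05, and DESeq2 called none of the 3 gal genes. gal7 had normalized counts of 257, 296 and 434 in STF6 and 226, 245 and 251 in STF9, against 235, 285 and 337.7 in asp1-WT. gal1 had 166, 216 and 298 in STF6 and 180.5, 208 and 244 in STF9, against 213, 209.6 and 194 in asp1-WT. For gal10 the counts were 33.7, 33.4 and 53.2 in STF6 and 33.3, 56.1 and 29.0 in STF9, against 34.0, 43.5 and 40.2 in asp1-WT. The mutant libraries of these 3 genes overlapped with asp1-WT, and their log2 fold changes ranged from -0.25 (gal7, STF9) to 0.21 (gal7, STF6).

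The 4 galactose genes were weakly transcribed in both media. Mean RPKM (counts scaled by exon length and effective library size) ran from 0.411 (gal10) to 7.21 (gal7) in asp1-WT. In kcs1-WT it ran from 0.683 (gal10) to 5.62 (gal1). In YES medium gal10 had normalized counts of 101, 91.7 and 94.8 in R332T, 72.7, 146 and 126 in L338R and 106, 138 and 139 in E834K, against 51.1, 49.8 and 71.6 in kcs1-WT. All mutant libraries exceeded kcs1-WT, and gal10 was 2.21-fold higher in E834K (log2 fold change 1.15, SE 0.24, adjusted p = 0.00271, edgeR), the only member called higher there. It rose 1.99-fold in L338R (log2 fold change 0.99, SE 0.24, adjusted p = 0.00839, edgeR), past 2-fold without L338R culture 1 or kcs1-WT culture 3, and 1.66-fold in R332T (log2 fold change 0.73, SE 0.24, adjusted p = 0.0304, edgeR), where it was lost without any library compared but kcs1-WT culture 3 (adjusted p from 0.0611 to 0.109). The exons of gal10 overlap with those of tgd1 on the other strand over 93.7% of their length, so reads of gal10 and tgd1 may not be separable, and tgd1 had log2 fold changes of 0.54, 0.70 and 0.87 in R332T, L338R and E834K (adjusted p = 0.0475, 0.021 and 0.00464, edgeR). The tgd1 value in R332T was lost in 5 of 6 fits that left out a library, all but that without R332T culture 3, and in L338R in 4, those without L338R culture 2 or 3 or kcs1-WT culture 2 or 3 (adjusted p from 0.0523 to 0.182).

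gal7 had normalized counts of 134, 124 and 146 in R332T, 65.4, 99.9 and 95.7 in L338R and 105, 96.9 and 93.0 in E834K, against 89.7, 96.5 and 82.9 in kcs1-WT in YES medium. The R332T libraries were above all others, and gal7 rose 1.502-fold there (log2 fold change 0.59, SE 0.16, adjusted p = 0.0135, edgeR), although not without R332T culture 3 (adjusted p = 0.0555). Its log2 fold changes in L338R and E834K were -0.04 and 0.13 (adjusted p = 0.888 and 0.585, edgeR). gal1 had 292, 304 and 337 in R332T, 179.7, 388 and 251 in L338R and 343, 346 and 359.8 in E834K, against 189, 308 and 301 in kcs1-WT. These groups overlapped, with log2 fold changes of 0.23 in R332T, 0.04 in L338R and 0.40 in E834K, none past the edgeR test (adjusted p = 0.454, 0.93 and 0.216).

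Beyond gal1, the 6 outermost members had few reads. SPBPB2B2.14c, SPBPB2B2.15, SPBPB2B2.16c, ftm7 and SPBPB2B2.19c were not tested in either experiment, with at most 14 counts in a library. SPBPB2B2.18, of which no 51-base window is unique, had normalized counts of 5.43, 16.7 and 2.70 in STF6 and 4.03, 0.984 and 1.45 in STF9, against 47.9, 100.5 and 15.5 in asp1-WT. It fell by 2.72 on the log2 scale in STF6 (SE 0.68, adjusted p = 0.00947, edgeR) and by 4.54 in STF9 (SE 0.86, adjusted p = 0.00154, edgeR), with a wild-type mean under 100. Its asp1-WT libraries differed widely. The STF6 fall of SPBPB2B2.18 was lost without asp1-WT culture 2 (-1.97, adjusted p = 0.0532, edgeR) and was -3.74 without STF6 culture 2, and the STF9 value was -5.39 without STF9 culture 1 and -3.78 without asp1-WT culture 2.

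At the left end of chromosome II, 14 members were tested in the STF experiment and 16 in the kcs1 experiment. The members called in a mutant against its wild type lay on the inner side, from cmt2 to SPBPB10D8.03. The coding loci next inward, SPBC359.01 and alr2 (alanine racemase), which are not members, had log2 fold changes of -2.16 and -3.43 in STF6 and -1.71 and -2.76 in STF9, each called lower.

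SPBPB10D8.03, an annotated pseudogene of a transporter, fell the most of any left-end member in both STF mutants. Normalized counts of SPBPB10D8.03 were 8.69, 1.04 and 2.70 in STF6 and 6.05, 12.8 and 4.35 in STF9, against 121, 155 and 152 in asp1-WT. In the kcs1 experiment the values were 179, 191 and 145 in R332T, 47.8, 72.0 and 81.4 in L338R and 60.7, 100.3 and 60.4 in E834K, against 171, 156 and 148 in kcs1-WT. The STF libraries held few reads of it, L338R and E834K libraries were all below the kcs1-WT libraries, and R332T overlapped with kcs1-WT. It was 34.2-fold lower in STF6 (log2 fold change -5.10, SE 0.46, adjusted p = 4.04e-06, edgeR) and 17.4-fold lower in STF9 (log2 fold change -4.12, SE 0.42, adjusted p = 1.27e-05, edgeR), where the STF6 libraries had 8, 1 and 3 counts and the STF9 libraries 6, 13 and 3. Leaving out STF6 culture 1 moved its STF6 value to -6.15, and leaving out STF9 culture 2 moved its STF9 value to -4.72. SPBPB10D8.03 was also 2.36-fold lower in L338R (log2 fold change -1.24, SE 0.22, adjusted p = 0.00125, edgeR) and 2.117-fold lower in E834K (log2 fold change -1.08, SE 0.22, adjusted p = 0.00243, edgeR), the last under 2-fold without E834K culture 1 (log2 fold change -0.96) or 3 (-0.97), and its log2 fold change in R332T was 0.12 (adjusted p = 0.665, edgeR).

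SPBPB10D8.02c, an arylsulfatase gene, had normalized counts of 29.3, 39.7 and 57.7 in STF6 and 64.5, 62.0 and 79.7 in STF9, against 261, 327 and 442 in asp1-WT. In the kcs1 libraries it had 534, 599 and 560.2 in R332T, 160.0, 315 and 219.9 in L338R and 241, 324 and 312 in E834K, against 276, 237 and 253 in kcs1-WT. It was low in all STF libraries and high in all R332T libraries, while the L338R and E834K libraries overlapped with kcs1-WT. SPBPB10D8.02c was 8.026-fold lower in STF6 (log2 fold change -3.005, SE 0.27, adjusted p = 3.76e-06, edgeR), 5.01-fold lower in STF9 (log2 fold change -2.33, SE 0.26, adjusted p = 2.49e-05, edgeR) and 2.21-fold higher in R332T (log2 fold change 1.14, SE 0.19, adjusted p = 4.59e-04, edgeR). In L338R and E834K its log2 fold changes were -0.14 and 0.19 (adjusted p = 0.654 and 0.481, edgeR). Its exons overlap with SPBPB10D8.01 and the lncRNA SPNCRNA.1307 on the other strand over 80.7% of their length.

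SPBPB10D8.01, a cysteine transporter gene, had normalized counts of 384, 473 and 509 in STF6 and 689, 695 and 728 in STF9, against 1173, 1257 and 1507 in asp1-WT. The YES libraries had 1472, 1337 and 1364 in R332T, 910.0, 859 and 773 in L338R and 968, 968 and 1024 in E834K, against 1459, 1425 and 1359 in kcs1-WT. Its STF libraries were all below asp1-WT, and its L338R and E834K libraries all below kcs1-WT, while R332T overlapped with kcs1-WT. SPBPB10D8.01 was 2.88-fold lower in STF6 (log2 fold change -1.52, SE 0.14, adjusted p = 3.99e-06, edgeR), and it fell 1.86-fold in STF9 (log2 fold change -0.90, SE 0.13, adjusted p = 2.66e-04, edgeR), 1.67-fold in L338R (log2 fold change -0.74, SE 0.07, adjusted p = 6.40e-06, edgeR) and 1.43-fold in E834K (log2 fold change -0.52, SE 0.07, adjusted p = 1.42e-04, edgeR), each under 2-fold. In R332T the log2 fold change was -0.02 (SE 0.07, adjusted p = 0.808, edgeR). SPBPB10D8.04c, the one repeated transporter gene of this stretch tested in the STF experiment, fell in STF6 (log2 fold change -1.12, SE 0.33, adjusted p = 0.0222, edgeR) and in STF9 (log2 fold change -1.16, SE 0.34, adjusted p = 0.019, edgeR), with 18.2% of its windows unique. The first was lost without STF6 culture 2 or asp1-WT culture 2 or 3 (adjusted p from 0.0562 to 0.0807), and the fall of SPBPB10D8.04c in STF9 without STF9 culture 1 or 2 or asp1-WT culture 2 or 3 (adjusted p from 0.0512 to 0.0927).

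cmt2 (SPBPB21E7.04c), a catechol O-methyltransferase gene, moved opposite to SPBPB2B2.06c in every mutant. Normalized cmt2 counts were 39.1, 45.9 and 68.5 in STF6 and 49.4, 58.1 and 52.2 in STF9, against 145, 182 and 219 in asp1-WT. In YES medium they were 129.5, 161 and 111 in R332T, 44.7, 59.1 and 46.8 in L338R and 69.9, 69.2 and 73.6 in E834K, against 14.5, 13.2 and 23.6 in kcs1-WT. No mutant library overlapped with its wild type. cmt2 was 3.52-fold lower in STF6 (log2 fold change -1.82, SE 0.25, adjusted p = 1.41e-04, edgeR) and 3.41-fold lower in STF9 (log2 fold change -1.77, SE 0.25, adjusted p = 1.73e-04, edgeR). It was 7.78-fold higher in R332T (log2 fold change 2.96, SE 0.23, adjusted p = 7.83e-07, edgeR), the largest rise of a member in the kcs1 experiment, and it rose 2.91-fold in L338R (log2 fold change 1.54, SE 0.26, adjusted p = 7.20e-04, edgeR) and 4.11-fold in E834K (log2 fold change 2.04, SE 0.25, adjusted p = 5.14e-05, edgeR), where its mean was under the 100 normalized counts of a call.

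aes1 (SPBPB21E7.07), of the phenazine biosynthesis family, was the most abundant member at either end in wild-type cells. Its normalized counts were 1525, 1577 and 1842 in STF6 and 1793, 1701 and 1625 in STF9, against 8194, 6573 and 6676 in asp1-WT. In YES medium they were 3536, 3548 and 3169.8 in R332T, 3225, 3301 and 3048 in L338R and 3023, 3018 and 2749 in E834K, against 2711, 2579 and 2186 in kcs1-WT. The STF libraries lay far under asp1-WT, and all kcs1 mutant libraries lay slightly above kcs1-WT. aes1 was 4.34-fold lower in STF6 (log2 fold change -2.12, SE 0.10, adjusted p = 1.64e-08, edgeR) and 4.19-fold lower in STF9 (log2 fold change -2.07, SE 0.10, adjusted p = 2.23e-08, edgeR), and it rose 1.37-fold in R332T (log2 fold change 0.46, SE 0.07, adjusted p = 3.72e-04, edgeR), 1.28-fold in L338R (log2 fold change 0.36, SE 0.07, adjusted p = 0.00324, edgeR) and 1.18-fold in E834K (log2 fold change 0.23, SE 0.07, adjusted p = 0.0281, edgeR). The rise of aes1 in E834K was lost without E834K culture 1 or 2 or kcs1-WT culture 3 (adjusted p from 0.0924 to 0.121, edgeR).

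SPBPB21E7.08, the annotated pseudogene next to aes1, fell in all 5 mutants. It had normalized counts of 1787, 1863 and 2686 in STF6 and 1979.9, 2038 and 1778 in STF9, against 4219, 4189 and 4588 in asp1-WT. In YES medium it had 702, 799 and 779 in R332T, 538, 777 and 587 in L338R and 514, 563 and 476 in E834K, against 997, 1268 and 1021 in kcs1-WT. No mutant library of SPBPB21E7.08 reached its wild type. It was 2.049-fold lower in STF6 (log2 fold change -1.04, SE 0.13, adjusted p = 7.26e-05, edgeR), 2.24-fold lower in STF9 (log2 fold change -1.16, SE 0.13, adjusted p = 2.97e-05, edgeR) and 2.112-fold lower in E834K (log2 fold change -1.08, SE 0.13, adjusted p = 6.48e-05, edgeR). The falls in R332T and L338R were 1.44-fold (log2 fold change -0.53, SE 0.13, adjusted p = 0.00764, edgeR) and 1.73-fold (log2 fold change -0.79, SE 0.13, adjusted p = 8.00e-04, edgeR). The STF6 fall was under 2-fold without STF6 culture 1 or 2 (log2 fold change -0.96 or -0.95) and the E834K fall without kcs1-WT culture 2 (-0.97). Its exons overlap with the lncRNA SPNCRNA.1305 over 94.0% of their length, and that lncRNA had log2 fold changes of 0.38 in STF6 and 0.05 in E834K.

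The remaining left-end members changed by less than 2-fold or had low counts. SPBPB21E7.09 and SPBPB8B6.05c, L-asparaginase genes with 41.8% and 26.8% of windows unique, fell in STF6, STF9, L338R and E834K, by 0.30 to 0.75 on the log2 scale. The fall of SPBPB8B6.05c was lost in STF6 without asp1-WT culture 2, and in STF9 without any STF9 culture or asp1-WT culture 2 or 3, and that of SPBPB21E7.09 in L338R without L338R culture 3 or kcs1-WT culture 1 or 2 (adjusted p from 0.0517 to 0.136, edgeR). eno102, an enolase gene, rose in STF9 (log2 fold change 0.95, SE 0.33, adjusted p = 0.0387, edgeR), in L338R (log2 fold change 0.94, SE 0.18, adjusted p = 0.00199, edgeR) and in E834K (log2 fold change 0.83, SE 0.18, adjusted p = 0.0038, edgeR). The STF9 rise of eno102 was lost without any 1 of the 6 libraries compared (adjusted p from 0.0657 to 0.146, edgeR), the L338R rise passed 2-fold without L338R culture 1 (log2 fold change 1.03), and eno102 also rose in STF6 without STF6 culture 1 (0.89, adjusted p = 0.0487). SPNCRNA.1302 on the other strand overlaps with 79.2% of its exons. fex2, a fluoride channel gene, fell in R332T (log2 fold change -0.52, SE 0.10, adjusted p = 0.002, edgeR) and E834K (log2 fold change -0.32, SE 0.10, adjusted p = 0.0317, edgeR), and grt1, a transcription factor gene, fell in R332T (log2 fold change -0.57, SE 0.20, adjusted p = 0.043, edgeR). The fall of grt1 was lost without any 1 of the 6 libraries compared (adjusted p from 0.0645 to 0.149, edgeR), and that of fex2 in E834K without any of them but E834K culture 3 (adjusted p from 0.0535 to 0.107). In L338R fex2 passed only without L338R culture 1 (log2 fold change -0.35, adjusted p = 0.0169, edgeR). SPBPB21E7.11 rose in R332T (log2 fold change 1.70, SE 0.42, adjusted p = 0.00746, edgeR) and E834K (log2 fold change 1.45, SE 0.44, adjusted p = 0.0243, edgeR) on counts of at most 36, the E834K rise being lost without E834K culture 1 or 2 or kcs1-WT culture 1 or 3 (adjusted p from 0.0749 to 0.0992). Neither SPBPB8B6.02c nor fah1 passed the edgeR test in any mutant in which it was tested.

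**Figure D3:**
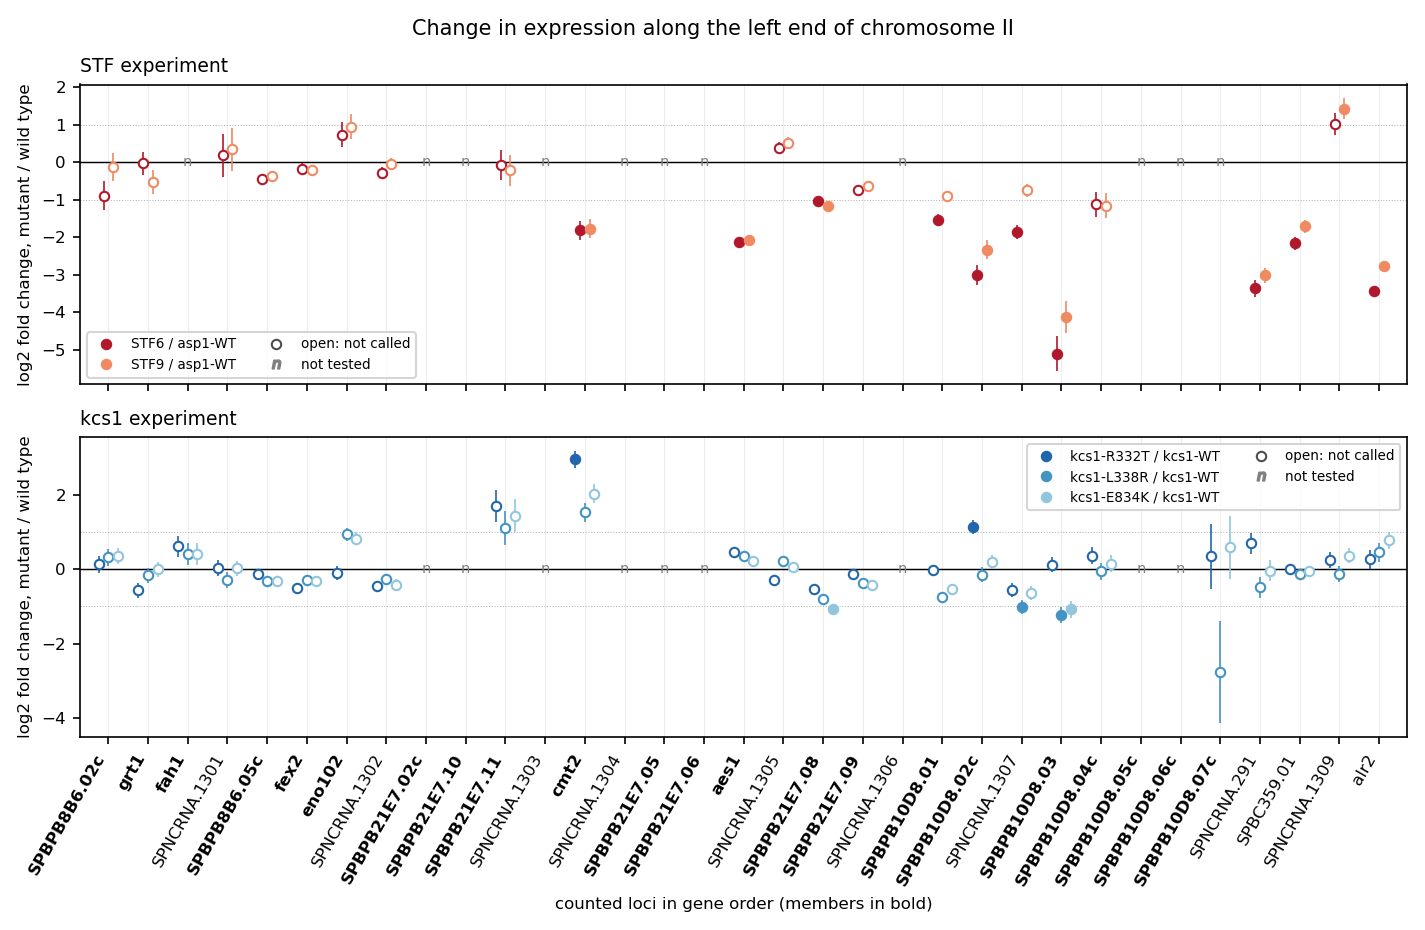
Log2 fold change of each counted locus along the left end of chromosome II, in gene order from SPBPB8B6.02c on the outer side to alr2 on the inner side (upper panel, STF6 and STF9 over asp1-WT; lower panel, kcs1-R332T, kcs1-L338R and kcs1-E834K over kcs1-WT). Points are fitted values with bars of 1 SE, filled points are called, n marks loci not tested, and dotted lines mark a 2-fold change. In STF6 the called members lie between -1.04 and -5.10, all below 0, and cmt2 stands highest in the lower panel at 2.96 in R332T.

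SPBPB7E8.01 and SPBPB7E8.02 share the SPBPB prefix and not the place: they are in the interior of chromosome II. SPBPB7E8.01, which the study describes as a protein with a predicted GPI anchor, was the most abundant member, at 618 ± 89.7 RPKM in STF6 cells, 628 ± 46.5 in STF9 cells and 721 ± 55.0 in asp1-WT cells (mean ± SD, n = 3), and 157 ± 3.76 in R332T, 129.8 ± 7.13 in L338R, 116 ± 8.33 in E834K and 268 ± 17.1 in kcs1-WT (RPKM, counts scaled by exon length and effective library size). Its normalized counts were 49974, 40291 and 38361 in STF6 and 45160.1, 39817 and 45611 in STF9, against 52503, 51861 and 45596 in asp1-WT. In YES medium they were 9903, 9505 and 9504 in R332T, 7931, 7518 and 8391 in L338R and 7508, 7212 and 6515 in E834K, against 16443, 17444 and 15349.7 in kcs1-WT. The STF and wild-type libraries overlapped, and all kcs1 mutant libraries were below kcs1-WT. SPBPB7E8.01 was 2.07-fold lower in L338R (log2 fold change -1.05, SE 0.06, adjusted p = 3.57e-08, edgeR) and 2.32-fold lower in E834K (log2 fold change -1.21, SE 0.06, adjusted p = 1.14e-08, edgeR), and it fell 1.70-fold in R332T (log2 fold change -0.77, SE 0.06, adjusted p = 6.94e-07, edgeR). In STF6 and STF9 its log2 fold changes were -0.22 and -0.20 (adjusted p = 0.204 and 0.226, edgeR), the STF6 value passing without STF6 culture 1 (-0.38, adjusted p = 0.0236).

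SPBPB7E8.02, a PSP1 family gene beside it, went the other way: it rose in L338R (log2 fold change 0.76, SE 0.09, adjusted p = 5.79e-05, edgeR) and E834K (log2 fold change 0.67, SE 0.09, adjusted p = 1.64e-04, edgeR), and in R332T it had 0.11 (adjusted p = 0.364). In STF6 and STF9 SPBPB7E8.02 had -0.41 and -0.29 (adjusted p = 0.0542 and 0.137, edgeR), values that passed as falls without asp1-WT culture 2 (-0.59 and -0.48), and in STF6 also without STF6 culture 1 (-0.48) or 3 (-0.42). The single gene SPBPB7E8.01 weighed heavily on the sum over members. It took 35.2% to 43.3% of member counts in L338R and E834K libraries and 43.8% to 45.1% in R332T libraries, against 55.8% to 57.6% in kcs1-WT libraries. All members together held 0.0748% to 0.0785% of all counts in E834K libraries, 0.0760% to 0.0822% in L338R libraries and 0.0923% to 0.0967% in R332T libraries, against 0.113% to 0.130% in kcs1-WT libraries. In the STF experiment the sum was 0.263% to 0.314% in mutant libraries and 0.288% to 0.299% in asp1-WT libraries, although single members changed by up to 34.2-fold.

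Levels per exon length also placed the members in an order. In asp1-WT, SPBPB7E8.01 was followed by aes1 (223 ± 28.4 RPKM, mean ± SD, n = 3), SPBPB21E7.08 (156 ± 7.98), SPBPB21E7.09 (55.2 ± 3.56) and nrg1 (42.5 ± 10.8), while SPBPB2B2.06c had 19.9 ± 5.18 RPKM and SPBPB2B2.05 had 5.78 ± 1.67. The means of SPBPB21E7.09 and nrg1 lay little more than the SD of nrg1 apart. In STF6, SPBPB2B2.06c had 337.6 ± 53.8 RPKM and in STF9 359 ± 13.6, second to SPBPB7E8.01 alone. Among the kcs1-WT members SPBPB2B2.06c had 28.6 ± 4.47 RPKM, within 1 SD of SPBPB10D8.01 (25.2 ± 0.910) and close to SPBPB8B6.05c (33.4 ± 1.02), and in R332T it had 1.08 ± 0.384. These RPKM values were scaled within each experiment, and medium and strain differ between them.

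The STF and kcs1 comparisons share no library, so the direction of each member could be set side by side. Of 27 members tested in both experiments, 8 had an adjusted p of at most 0.05 (edgeR) both in STF6 and in R332T, and 7 of the 8 had opposite signs: SPBPB2B2.06c and nrg1 rose in STF6 and fell in R332T, while nam3, pan5, cmt2, aes1 and SPBPB10D8.02c fell in STF6 and rose in R332T. SPBPB21E7.08 fell in both. Among all 6043 loci tested in both experiments, 664 passed in both comparisons and 484 of them (72.9%) had opposite signs, where the members had 87.5%. Against L338R, 3 of 8 members that passed in both had the sign opposite to STF6 (38.5% of 540 loci overall), and against E834K 4 of 9 (38.2% of 642 loci). The members with the same sign in L338R and E834K as in STF6 were SPBPB10D8.01, SPBPB10D8.03, SPBPB21E7.08, SPBPB21E7.09 and SPBPB8B6.05c, all of them left-end genes that fell.

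**Figure D4:**
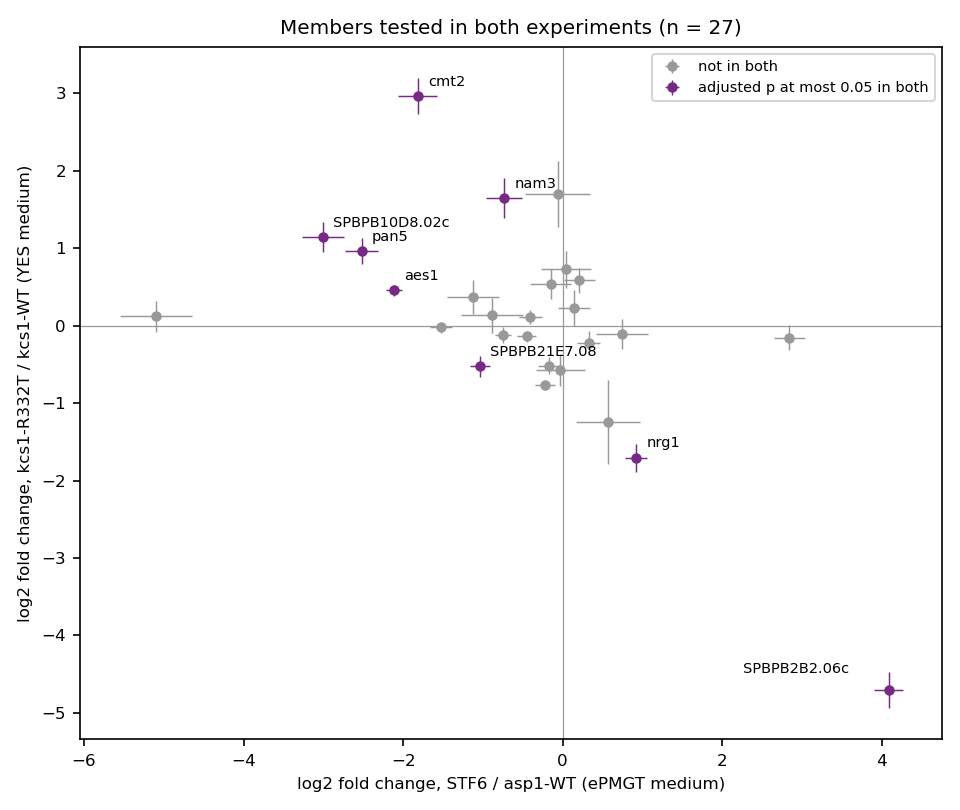
Log2 fold change of the 27 members tested in both experiments, in STF6 over asp1-WT (x axis) and in kcs1-R332T over kcs1-WT (y axis), with bars of 1 SE. Named points had an adjusted p of at most 0.05 in both comparisons, and 7 of these 8 lie in the quadrants of opposite sign, SPBPB2B2.06c at 4.09 and -4.70. SPBPB2B2.05, at 2.84 and -0.16, is among the grey points.

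Contrasts between alleles of one gene used the same fits. Between STF9 and STF6, 0 of 28 members passed the edgeR test, with 4 at an unadjusted p under 0.05 and none called by DESeq2, where 0.0326% of all loci were called and 0.0814% passed by the adjusted p alone, and the difference in SPBPB2B2.06c was 0.09 on the log2 scale (SE 0.16). Between L338R and E834K, 0 of 29 members passed in edgeR, with 4 at an unadjusted p under 0.05 and none called by DESeq2, where 0% of loci were called, and SPBPB2B2.06c differed by 0.17 (SE 0.19). R332T stood apart from both. Relative to L338R, 4 members were called higher and 3 lower, where 0.394% and 0.443% of all loci were (0.837% in all), and 8 and 5 passed by the adjusted p alone (17.6% and 19% of all loci). Relative to E834K, 1 was called higher and 2 lower, where 0.197% and 0.443% of all loci were (0.64% in all), and 7 and 4 passed by the adjusted p alone (4.05% and 9.88% of all loci). SPBPB2B2.06c was 6.55-fold lower in R332T than in L338R (log2 fold change -2.71, SE 0.23, adjusted p = 1.72e-06, edgeR) and 5.83-fold lower than in E834K (log2 fold change -2.54, SE 0.23, adjusted p = 4.74e-06, edgeR). eno102 was also lower in R332T than in L338R (log2 fold change -1.04, SE 0.18, adjusted p = 8.37e-04, edgeR), a call that fell under 2-fold without R332T culture 1 or 3 or L338R culture 2 (log2 fold changes from -0.97 to -0.93).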

How the data were processed

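The deposited files hold raw counts, a whole number per locus and library. Per the labels and the study's methods, the authors mapped paired 51-base reads with HISAT2 2.1.0 to ASM294v2 and made each count with HTSeq 0.10.0. The strand setting of the counting is not given in the sources used here, and labels and methods name different stranded kits. The authors' DESeq2 tables (mean normalized counts, fold changes and p-values) were not used.

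All groups of an experiment entered one fit with the quasi-likelihood test of edgeR 4.0.16 in R 4.3.3, after filterByExpr by group and TMM scaling, with a prior count of 0.125. Residual degrees of freedom were 6 and 8. DESeq2 1.42.0, other scalings and filters, a replicate block and leaving out each library were tried as alternatives, and the fits were tested on simulated data. RPKM used exon lengths of the gene table of ASM294v3, to which 6836 of 6988 loci matched.

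SPBPB8B6 names were included by their prefix. The members and lists were chosen with earlier results of these data known. Values are given for SPBPB2B2.06c, the 3 members on either side of it, nam3, gal1, gal7, gal10 and each member called in a mutant, and the other members are summarised. By the labels, replicates were numbered 1 to 3 in every group. Deviations from the group mean correlated between same-numbered libraries of STF6 and asp1-WT (r = 0.55, 0.25 and 0.54) and of L338R and kcs1-WT (0.39, 0.16 and 0.14), and in no other comparison by more than 0.1 for all 3 numbers. No replicate pair was a duplicate (chi-square per degree of freedom of at least 3.16). No sequences are printed, because the genome provided is of another build.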

Additional observations from a re-analysis of the deposited data

Results flagged for a closer look

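Of the members, 7 were called between R332T and L338R and 3 between R332T and E834K (edgeR adjusted p, 2-fold change and count minimum in the allele contrast itself), and their values are given here. Among all loci tested, 0.837% and 0.64% were called in these contrasts. By the adjusted p alone, 13 and 11 members passed, or 44.8% and 37.9% of those tested. Of all loci, 36.6% and 13.9% passed, so the share of members relative to L338R was not far above that of all loci. SPBPB2B2.06c was lower in R332T than in L338R (log2 difference -2.71, adjusted p = 1.72e-06, edgeR) and than in E834K (-2.54, adjusted p = 4.74e-06). nrg1 was also lower in R332T, by -1.59 relative to L338R (adjusted p = 3.10e-05, edgeR) and -1.77 relative to E834K (adjusted p = 1.62e-05). eno102 was lower in R332T than in L338R (-1.04, adjusted p = 8.37e-04, edgeR). The pseudogene SPBPB10D8.03 was higher in R332T than in L338R (1.36, adjusted p = 5.50e-04, edgeR) and than in E834K (1.2, adjusted p = 0.00193). A further 3 members were higher in R332T than in L338R: cmt2 by 1.42 (adjusted p = 1.87e-04, edgeR), nam3 by 1.32 (adjusted p = 0.00177) and SPBPB10D8.02c by 1.29 (adjusted p = 2.73e-04). In each of these contrasts of SPBPB2B2.06c, nrg1 or eno102 all 3 R332T libraries lay below all 3 libraries of the other allele, and in each contrast of the other 4 members all 3 lay above. These contrasts use 3 cultures of 1 strain for each allele.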

How the results depend on the processing

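SPBPB2B2.06c kept its direction and its call in all 5 mutants under every alternative run. With 1 library left out, its log2 fold change lay between 3.91 and 4.30 in STF6, 4.01 and 4.39 in STF9, -5.05 and -4.55 in R332T, -2.12 and -1.91 in L338R and -2.31 and -1.99 in E834K. Its small difference between L338R and E834K (0.17, not past the test) ranged from -0.0043 to 0.32. Counting members by the adjusted p alone, with no fold or count minimum, gave 12 lower in STF6, 5 higher and 12 lower in STF9, 9 and 6 in R332T, 6 and 7 in L338R, 8 and 8 in E834K, 8 higher and 5 lower in R332T relative to L338R, and 7 higher and 4 lower in R332T relative to E834K. The count called higher in L338R, 0, was 1 by DESeq2, 1 with L338R and kcs1-WT fitted alone, and between 0 and 2 with 1 library left out. The count higher in R332T relative to E834K, 1, lay between 1 and 3. Under RLE size factors, no low-count filter, and members of unique sequence alone, each count was within 1.5 times the main one.

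With the replicate number as a block, nam3 passed the edgeR test in E834K (0.67, adjusted p = 0.0490), short of the fold and count for a call. No other value of a named member turned direction or crossed an adjusted p of 0.05 with that block. That held also in STF6 and L338R, whose numbers pair with their wild type. Under the other alternatives, direction turned only for values that had not passed the test. gal10 in STF6 was -0.0042 by DESeq2 and -0.013 with STF6 and asp1-WT fitted alone. With 1 library left out, log2 fold changes ranged in STF6 from -0.092 to 0.32 (gal7), -0.27 to 0.16 (gal10) and -0.15 to 0.29 (gal1), and in STF9 from -0.34 to 0.18 (gal10) and -0.097 to 0.13 (gal1). They ranged from -0.066 to 0.0037 for SPBPB10D8.01 in R332T. In L338R they ranged from -0.43 to 0.060 (SPBPB10D8.02c), -0.25 to 0.096 (nrg1), -0.063 to 0.42 (pan5), -0.15 to 0.12 (gal7) and -0.30 to 0.26 (gal1), and in E834K from -0.14 to 0.28 (nrg1) and -0.10 to 0.086 (say1). The cause of these changes was not tested. gal1 in E834K passed with E834K and kcs1-WT fitted alone (0.40, adjusted p = 0.0376). Members with few reads or repeated sequence, and pairs that overlap on opposite strands, limit what the counts can show.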
